A study of Homo sapiens with 6 samples.

Results

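The genes examined here encode the subunits of voltage-gated and potassium-selective ion channels, as measured in HT1080 cells with and without an intact TOP3B gene. They were chosen by symbol, as the KCN potassium channel genes, the SCN sodium channel genes and the CACN calcium channel genes, with antisense genes left out. The rule found 114 of the 35819 genes of the tables, of which 80 are KCN, 12 are SCN and 22 are CACN genes. HT1080 is an established human fibrosarcoma line of fibroblast-like shape. The knockout group (KO) holds 3 libraries of clone E2-2, in which CRISPR was directed at exon 2 of TOP3B, and the WT group holds 3 libraries of unedited cells. Its product, topoisomerase III-beta, relaxes DNA and can also act on RNA. The study asked what losing it does to R-loops (RNA paired with DNA) and to transcription. Both groups grew in the same serum-supplemented medium, and total RNA was sequenced after depletion of ribosomal RNA with a directional library kit. The KO group is 1 clone, so the comparison is of this clone with the WT cells. The series text gives another line's name, HCT116, for the WT cells in 1 place, whereas every sample label gives HT1080. The labels do not say whether the libraries of a group came from separate cultures, so every p-value rests on a library-to-library spread that may be only technical.

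Ion channels of these families are built around a pore-forming subunit that opens and closes with membrane voltage, with calcium or with ligands. Accessory subunits (beta, alpha2delta, KChIP, KCNE and others) set how many channels reach the surface and how fast they open or close. Sodium channels start action potentials, potassium channels end them and hold the resting potential, and calcium channels couple voltage to secretion, contraction and transcription. In cells that fire no action potentials, such as fibroblasts and many tumour cells, potassium channels are known for their part in volume, migration and the cell cycle.

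Library totals ran between 18501898 and 20340136 estimated counts in KO and between 17919106 and 20475280 in WT. The TOP3B transcript had 407, 383 and 361 counts in KO and 536, 376 and 469 in WT, a difference that did not pass the test (log2 fold change -0.33 ± 0.19 SE, adjusted p = 0.342), and gene-level counts do not check a small edit within an exon. KO replicate 3 stood apart from the other libraries. Over genes averaging 16 CPM or more (counts relative to the TMM-scaled library size), the SD of log2 differences was 0.614 to 0.637 between it and the other KO libraries, 0.247 between KO replicates 1 and 2, and 0.275 to 0.328 between pairs of WT libraries. Between KO and WT libraries it was 0.474 to 0.509 for KO replicates 1 and 2 and 0.711 to 0.758 for KO replicate 3. KO replicate 3 was thus farther from the other KO libraries than those were from WT. The 11 fibroblast or mesenchymal markers summed to 17219 to 18917 CPM in KO and 28380 to 29644 CPM in WT. None was at 0 in all libraries, but only 8 had counts enough to be tested. THY1 had 0, 0 and 0 counts in KO and 1, 0 and 0 in WT, and COL3A1 had 1, 1 and 0 and 2, 0 and 0. The sum moved with FN1 (2466 to 3561 CPM in KO, 11214 to 12630 CPM in WT) and SPARC (3235 to 3632 CPM in KO, 5530 to 5866 CPM in WT), while VIM was level (log2 fold change -0.02). The 10 neuronal markers summed to 41.3 to 75.4 CPM in KO and 72.9 to 77.2 CPM in WT, with ELAVL4 and STMN2 listed at 0 throughout. The 6 epithelial markers summed to 110 to 132 CPM in KO and 107 to 119 CPM in WT. The muscle, smooth muscle, endothelial and blood markers each summed to at most 18.6 CPM in KO and 26.5 CPM in WT, with ACTC1 and VWF listed at 0. The part of these markers in the results below was not tested, and in bulk RNA fewer cells of a kind and less RNA per cell cannot be told apart.

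Most channel genes had few or no counts in these cells, and 67 of the 114 could not be tested. Of the 114 members, 21 (18.4%) were listed at 0 in all 6 libraries, against 39.7% of all genes. A further 46 had some counts but stayed below the filter on low counts, the largest with 112 counts summed over the 6 libraries. The remaining 47 members were tested (41.2%, against 39.0% of all genes), namely 30 KCN, 6 SCN and 11 CACN genes. A count of 0 in a library allows up to 3 counts, or 0.148 to 0.154 CPM in KO and 0.148 to 0.171 CPM in WT, which covers counting error only. The voltage-gated potassium pore genes were the largest role group, with 7 of 25 tested. All 4 calcium channel beta subunits were tested, and none of the 4 gamma subunits in the tables passed the filter.

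One gene gave most of the channel counts, which are not scaled to gene length. KCNMA1, the pore subunit of the large-conductance calcium-activated potassium (BK) channel, took 67.7% to 70.3% of all member counts in the KO libraries and 64.4% to 65.7% in the WT libraries. It had 1105, 1109 and 927 CPM in KO and 1136, 1193 and 1141 CPM in WT. The KO values lay below the WT values by a small margin, and the difference did not pass the test (log2 fold change -0.14 ± 0.09 SE, adjusted p = 0.372). All members together made up 0.145% to 0.158% of the counts in KO libraries and 0.170% to 0.176% in WT libraries. Without KCNMA1 they summed to 442 to 470 CPM in KO and 602 to 630 CPM in WT, so the groups did not overlap. This sum follows its abundant members and does not describe each gene. Mean CPM in KO and WT was 75.9 and 147 for CACNA2D4, 75.3 and 115 for SCN2A, 43.1 and 70.7 for KCNG1 and 24.6 and 44.7 for CACNB3. Of the 47 tested members, 21 had a positive log2 fold change and 26 a negative one.

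Levels per length depend on the length used. The deposited RPKM values divide by a length close to the genomic span of the transcripts, introns included (median ratio 1.01 over the 93 members above 0, of which 40 lay within 3%), and for CACNA1E and others the 2 lengths differ more. On that scale the highest WT level was that of KCNG1, a silent subunit that modifies other potassium channels, at 6.15 RPKM. It was followed by CACNB3, a calcium channel beta subunit, at 5.47, by CACNA2D4, an alpha2delta subunit, at 3.03, by KCNMA1 at 2.34 and by KCNJ14, an inward rectifier, at 1.80. The WT libraries of each of these 5 did not overlap those of the next gene. KCNAB3, a cytoplasmic beta subunit (1.34), KCNN4, the intermediate-conductance calcium-activated channel (1.25), KCNE5, a single-pass regulator (1.24) and SCN2A, a neuronal sodium channel (1.14), followed. In this stretch the WT ranges of KCNAB3, KCNN4 and KCNE5 each overlapped that of the next gene, so their order is not resolved. KCNJ14 and KCNE5 each overlap another gene on the same strand (GRWD1 and ACSL4), and reads shared with it cannot be told apart. Per kilobase of merged exons the order changed, with KCNMA1 first at 32.4 CPM per kilobase, then CACNA2D4 at 19.3, KCNG1 at 13.0, CACNB3 at 6.25, KCNQ5, an M-current subunit, at 5.00 and SCN2A at 4.84. The median tested member had a level of 0.0548 RPKM in WT and the median tested gene 0.845 RPKM, and 9 members reached 1 RPKM. The length that RPKM divides by had a median of 61.5 kb in tested members and 17.2 kb in all genes tested. These 2 RPKM medians thus rest on unlike lengths, and they were not compared per kilobase of exons.

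**Figure D1:**
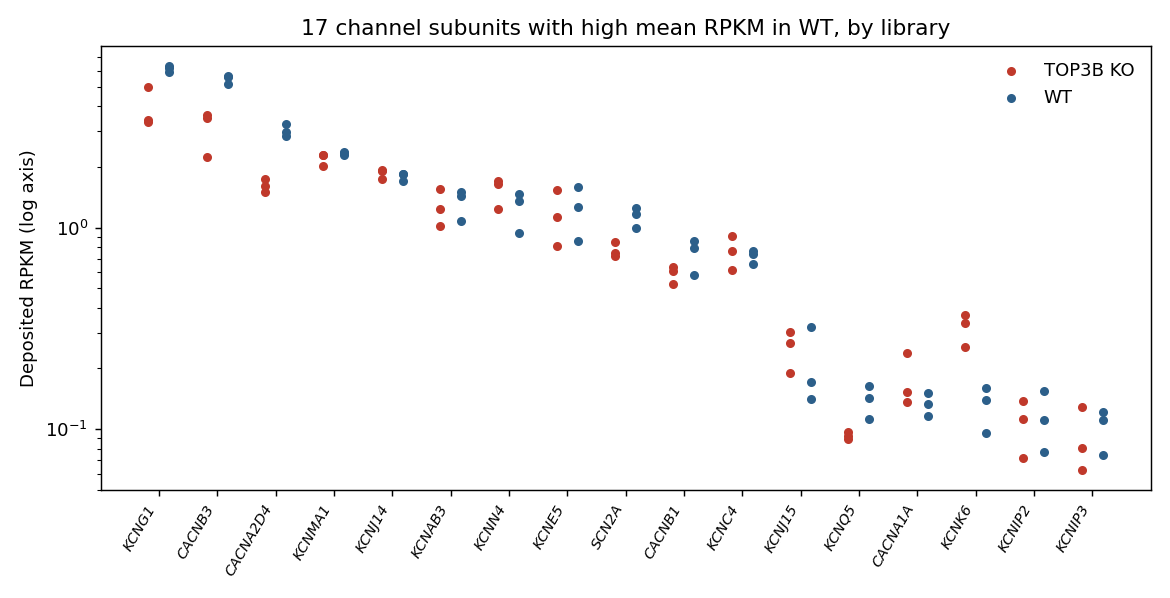
Deposited RPKM of 17 channel subunits with a high WT mean, on a log axis, with 1 point per library (KO left of WT for each gene). KCNG1, CACNB3 and CACNA2D4 head the order and have their KO points below their WT points, while those of KCNJ14 lie together.

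In the KO libraries 6 of the 47 tested members fell and 0 rose at an adjusted p under 0.05 (edgeR quasi-likelihood test, Benjamini-Hochberg adjustment over 13965 genes). That is 12.8% of tested members called lower, against 4.63% of all genes tested, while 3.21% of all genes were called higher. The 6 were the calcium channel genes CACNA1E and CACNA2D4, the potassium channel genes KCNH1, KCNH3 and KCNG1 and the sodium channel gene SCN2A. At an unadjusted p under 0.05, 6 members were higher and 9 lower (11.9% and 12.8% of all genes tested). DESeq2 called 4 higher and 9 lower (5.67% and 8.06% of all genes in that test), and limma-voom 1 higher and 7 lower (3.09% and 4.89%). Log2 fold changes were positive in 21 tested members and negative in 26, with a median of -0.13, against 0.05 over all genes tested. The KO libraries lay wholly above the WT libraries in 9 tested members (19.1%, against 16.5% of all genes tested) and wholly below them in 12 (25.5%, against 17.1%). Of the tested members, 4 passed the filter in the 3 libraries of 1 group and in none of the other, CACNB2, KCNH3, KCNIP4 and KCNK9, so these counts do not describe all members.

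**Figure D2:**
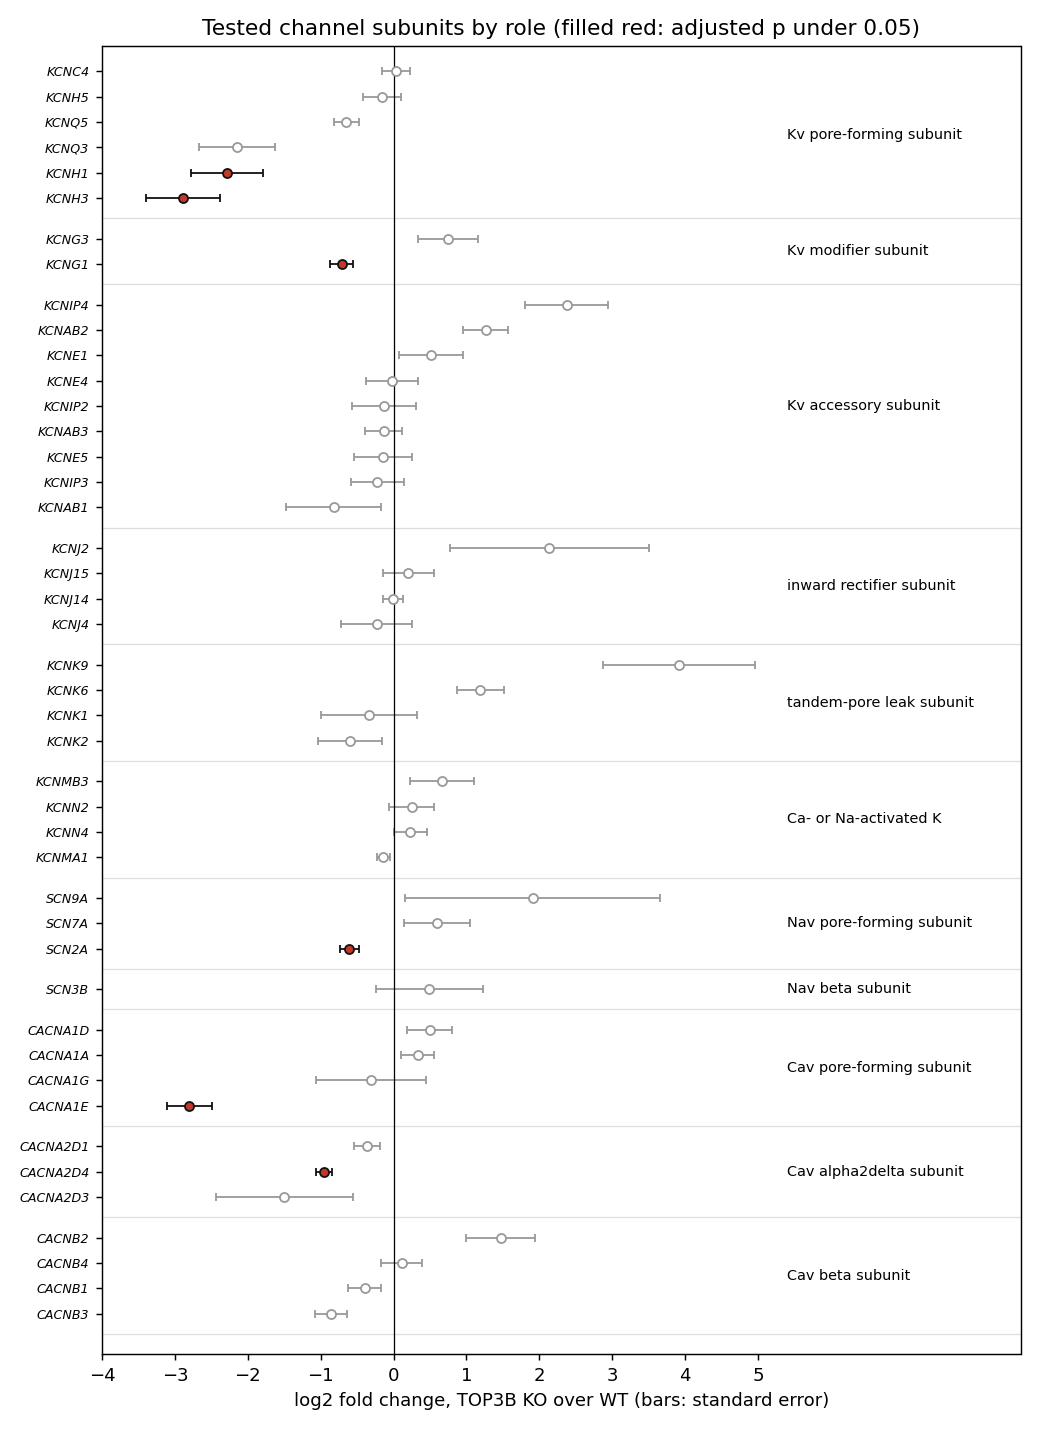
Log2 fold change, KO over WT, of 44 of the 47 tested channel subunits, grouped by role, with bars for 1 standard error and filled red points for an adjusted p under 0.05. The 6 called members all lie left of 0, and the long bars of SCN9A and KCNJ2 go with libraries at 0 beside others of 28 counts or more in the same group.

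Among calcium channel pores, 1 of 4 tested members fell. CACNA1E, the pore of the R-type calcium channel, had 0.885, 0.655 and 1.18 CPM in KO replicates 1 to 3, against 6.83, 6.03 and 6.20 CPM in WT. The libraries of each group lay close together and the groups were far apart. Mean levels were 0.906 ± 0.262 CPM in KO and 6.36 ± 0.423 CPM in WT (SD, n = 3 each), 6.98-fold lower in KO (log2 fold change -2.80 ± 0.31 SE, adjusted p = 0.00562). The gene spans chr1:181317690-181808084 on the plus strand (GENCODE v29, GRCh38). CACNA1A, the pore of P/Q-type channels and the most abundant of this group, had 18.2, 20.4 and 30.1 CPM in KO and 18.2, 15.97 and 20.4 CPM in WT. These ranges overlapped (log2 fold change 0.33 ± 0.22 SE, adjusted p = 0.406). CACNA1D, an L-type pore, was at 3.32 to 5.73 CPM in KO and 2.71 to 3.30 CPM in WT, a difference that did not pass (0.49 ± 0.30 SE, adjusted p = 0.365).

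All 3 tested alpha2delta subunits, which carry calcium channels to the membrane, had KO libraries wholly below the WT libraries, as did 17.1% of all genes tested, and 1 of the 3 passed the test. CACNA2D4, known for its part in photoreceptor synapses, had 76.8, 82.9 and 67.9 CPM in KO, against 145, 139.7 and 157 CPM in WT. With 1326 to 1646 counts per KO library and 2549 to 3193 per WT library it is among the most deeply sampled members. Its mean was 75.9 ± 7.56 CPM in KO and 147 ± 8.86 CPM in WT (SD, n = 3 each), 1.94-fold lower in KO (log2 fold change -0.96 ± 0.11 SE, adjusted p = 0.00662). It spans chr12:1791957-1918836 on the minus strand, and LRTM2, which overlaps it on the opposite strand, had 0 to 6 counts. CACNA2D1, the widely expressed family member, was at 7.68 to 8.86 CPM in KO and 9.30 to 11.5 CPM in WT (log2 fold change -0.36 ± 0.18 SE, adjusted p = 0.260). CACNA2D3 had 19, 0 and 12 counts in KO and 25, 26 and 34 in WT (-1.50 ± 0.94 SE, adjusted p = 0.372).

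None of the 4 beta subunits, the cytoplasmic partners of the calcium channel pore, passed in edgeR. CACNB3 had 28.04, 28.8 and 17.0 CPM in KO, against 46.2, 46.1 and 41.7 CPM in WT. The groups did not overlap, and KO replicate 3 was the lowest library (log2 fold change -0.86 ± 0.22 SE, adjusted p = 0.0594, and 0.0138 without that library), and DESeq2 called it lower (adjusted p = 0.0036). CACNB1 was at 5.64 to 6.84 CPM in KO and 6.30 to 9.53 CPM in WT (-0.39 ± 0.23 SE, adjusted p = 0.335).

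Of the 7 tested pore subunits of voltage-gated potassium channels, KCNH1 and KCNH3 fell, and KCNH3 entered the test through the WT libraries alone. KCNH1, a channel of the brain that is also found in many tumours, had 5.61, 4.43 and 1.28 CPM in KO, against 15.3, 21.1 and 18.9 CPM in WT. KO replicate 3 was the lowest library, and all KO libraries were far below the WT ones. Means were 3.77 ± 2.24 CPM in KO and 18.5 ± 2.94 CPM in WT (SD, n = 3 each), 4.88-fold lower in KO (log2 fold change -2.29 ± 0.49 SE, adjusted p = 0.0389). KCNH1 lies at chr1:210676823-211134180 on the minus strand. KCNH3, a channel of forebrain neurons, was near the limit of detection with 1, 2 and 2 counts in KO and 12, 14 and 12 counts in WT (log2 fold change -2.89 ± 0.50 SE, adjusted p = 0.0215). With DESeq2 KCNH3 came to -2.99 with a wider SE of 1.05 (adjusted p = 0.0356). It lies at chr12:49539157-49558308 on the plus strand and overlaps MCRS1 on the opposite strand, which had 473 to 610 counts in KO and 427 to 557 in WT, and the sources used here do not say whether counting used the strand. KCNH5, the other tested gene of the KCNH (ether-a-go-go) family, was at 3.33 to 5.24 CPM in KO and 4.61 to 5.61 CPM in WT, which overlap (-0.16 ± 0.26 SE, adjusted p = 0.739).

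The M-current genes KCNQ3 and KCNQ5 were lower in every KO library than in any WT library, as were 17.1% of all genes tested. Neither passed in edgeR. DESeq2 called both lower (adjusted p = 0.0074 for KCNQ3 and 0.0111 for KCNQ5), and limma-voom called KCNQ3 (0.0366), as did edgeR with a filter of 1 CPM in 3 libraries (0.0485). KCNQ3 passed that filter through the WT libraries alone, so a difference was built into its being tested there. KCNQ3 had 4, 10 and 16 counts in KO and 39, 50 and 41 in WT (log2 fold change -2.15 ± 0.52 SE, adjusted p = 0.0538). KCNQ5 had 25.6, 24.4 and 22.3 CPM in KO and 30.5, 45.1 and 37.9 CPM in WT (-0.65 ± 0.17 SE, adjusted p = 0.0691) and is named here after its values were seen. KCNC4, a fast-activating potassium channel and among the most abundant pores of the group, was at 15.3 to 23.96 CPM in KO and 17.9 to 20.5 CPM in WT (0.03 ± 0.19 SE, adjusted p = 0.930).

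The silent subunit KCNG1 fell, as 1 of 2 tested modifier subunits. It had 38.5, 37.5 and 53.4 CPM in KO, against 71.2, 73.8 and 67.2 CPM in WT. KO replicate 3 was the KO library nearest to WT. Means were 43.1 ± 8.92 CPM in KO and 70.7 ± 3.34 CPM in WT (SD, n = 3 each), 1.64-fold lower in KO (log2 fold change -0.71 ± 0.16 SE, adjusted p = 0.0459). The gene lies at chr20:51003656-51023129 on the minus strand. KCNG3, the other one, was at 2.52 to 5.01 CPM in KO and 1.28 to 2.59 CPM in WT (0.75 ± 0.41 SE, adjusted p = 0.310).

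None of the 9 tested accessory subunits of voltage-gated potassium channels passed in edgeR, while DESeq2 called KCNAB2 (adjusted p = 0.0041) and KCNIP4 (0.0316) higher, as did edgeR with library size alone. KCNIP4, a calcium-binding partner of Kv4 pores, had 34, 24 and 14 counts in KO and 5, 2 and 6 in WT (log2 fold change 2.37 ± 0.57 SE, adjusted p = 0.0525). It passed the filter on low counts through the KO libraries alone, so a difference was built into its being tested. KCNAB2, a cytoplasmic beta subunit, had 14.0, 18.0 and 8.80 CPM in KO and 6.09, 4.36 and 6.54 CPM in WT (1.26 ± 0.31 SE, adjusted p = 0.0559), and is named here after its values were seen. Both had KO libraries wholly above WT, as did 16.5% of all genes tested. For KCNIP4 this was built in by the way it passed the filter. NPHP4, opposite KCNAB2, had 482 to 614 counts in KO and 309 to 349 in WT, and KCNIP4-IT1, on the strand of KCNIP4, had 30 to 38 in KO and 13 to 26 in WT, so shared reads cannot be told apart. KCNAB3 (3.62 to 5.27 CPM in KO, 4.01 to 5.41 CPM in WT) and KCNE5 (1.13 to 2.26 CPM in KO, 1.28 to 2.39 CPM in WT) overlapped between groups. ACSL4, which overlaps KCNE5 on the same strand, had 1690 to 1765 counts in KO and 1745 to 2121 in WT.

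No inward rectifier, tandem-pore or calcium-activated potassium channel gene passed in edgeR, among 4 tested members of each group. KCNJ14 was level at 15.0 to 16.6 CPM in KO and 14.7 to 16.3 CPM in WT (log2 fold change -0.01 ± 0.14 SE, adjusted p = 0.980). GRWD1, which overlaps KCNJ14 on the same strand, had 1067 to 1458 counts in KO and 1153 to 1209 in WT. KCNJ15 was at 8.95 to 14.3 CPM in KO and 6.74 to 15.5 CPM in WT. KCNJ2, the classical inward rectifier of muscle, had 56, 52 and 76 counts in KO and 0, 0 and 42 in WT. WT replicate 3 thus differed from the other WT libraries, and the gene did not pass (2.13 ± 1.37 SE, adjusted p = 0.382). Without that library its adjusted p was 0.0313. The WT libraries left in that fit were at 0, and KCNJ2 passed its filter through the KO libraries alone. A difference was thus built into its being tested there. KCNK9, an acid-sensitive leak channel, had 18, 24 and 40 counts in KO and 0, 0 and 5 in WT (adjusted p = 0.0711). It was called higher by DESeq2 (adjusted p = 0.0121) and limma-voom (0.0323), and it passed the filter on low counts through the KO libraries alone. KCNK6, a weak leak channel, had 46, 58 and 60 counts in KO and 25, 18 and 26 in WT (1.19 ± 0.32 SE, adjusted p = 0.0758), and was called higher by limma-trend on RPKM (adjusted p = 0.0331 and 0.0391 with a pseudocount of 1 and 0.1). KCNK1, of the same subfamily, had 17, 8 and 15 counts in KO and 4, 27 and 19 in WT. KCNN4 was at 8.01 to 10.6 CPM in KO and 6.34 to 9.49 CPM in WT (0.23 ± 0.23 SE, adjusted p = 0.573).

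Of the 4 tested sodium channel pores, SCN2A fell. It had 83.9, 73.9 and 68.0 CPM in KO, against 100.7, 119.7 and 124 CPM in WT, with 1328 to 1706 counts per KO library and 1768 to 2522 per WT library. The groups did not overlap, and WT replicate 1 was the WT library nearest to KO. Means were 75.3 ± 8.07 CPM in KO and 115 ± 12.4 CPM in WT (SD, n = 3 each), 1.53-fold lower in KO (log2 fold change -0.61 ± 0.13 SE, adjusted p = 0.0375). SCN2A spans chr2:165194993-165392310 on the plus strand and overlaps SCN3A on the opposite strand, which had 4, 0 and 44 counts in KO and 7, 51 and 6 in WT. SCN9A, a channel of pain-sensing neurons, had 0, 63 and 44 counts in KO and 0, 28 and 0 in WT (adjusted p = 0.541). Neither tested beta subunit of sodium channels passed. SCN3B had 7, 14 and 15 counts in KO and 6, 2 and 17 in WT.

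**Figure D3:**
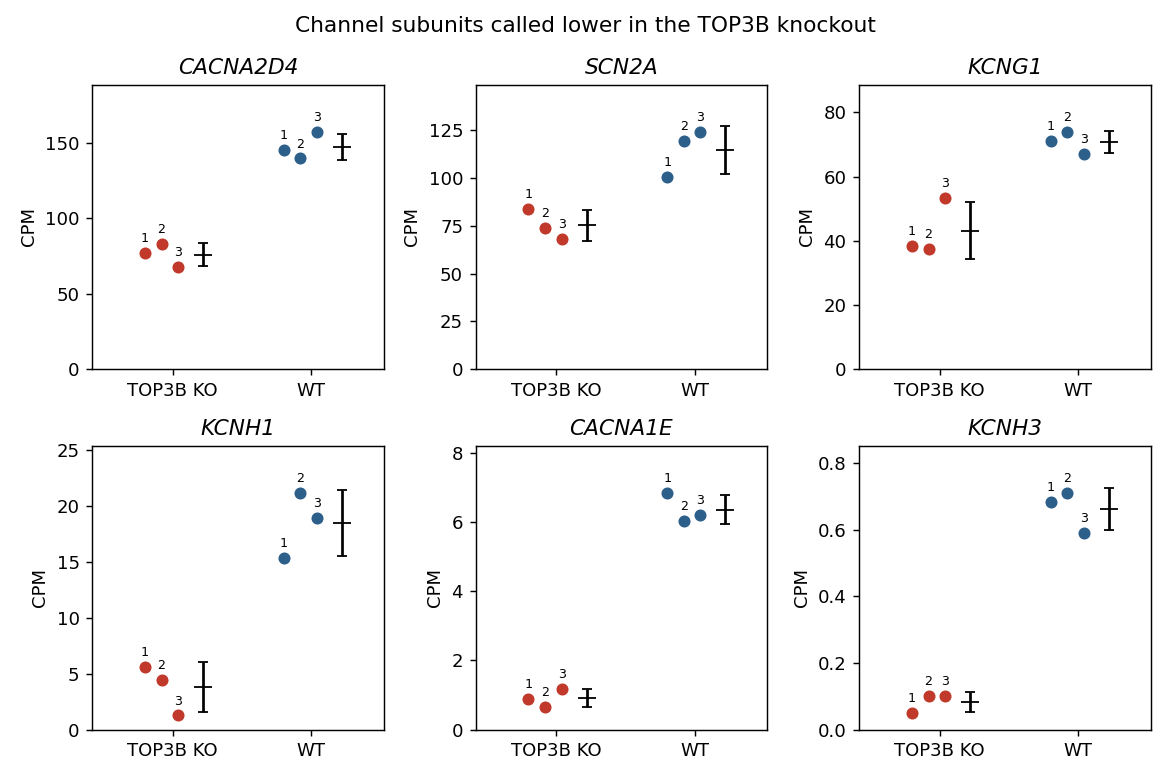
CPM of the 6 called channel subunits in each library, with a panel per gene, KO left of WT, 1 point per library and bars for the mean and SD (n = 3). In each panel the 3 KO points lie below the 3 WT points, by the widest ratio for KCNH3 and CACNA1E.

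Leaving out libraries separated the 6 called members. CACNA1E and CACNA2D4 passed in each of the 6 fits that left out 1 library, with adjusted p up to 0.0394 and 0.0408. KCNH1, KCNH3, KCNG1 and SCN2A passed, of these 6 fits, only in the one without KO replicate 3, which called 3 members higher and 8 lower (5.39% and 7.84% of all genes in that fit). The members it added included KCNAB2 and KCNIP4 among the higher ones, and were CACNB3 and KCNQ3 among the lower ones. In the fits without KO replicate 1 or 2, or without WT replicate 1, 2 or 3, 2 members were called lower each time, and adjusted p lay between 0.0615 and 0.133 for KCNH1, 0.0846 and 0.101 for KCNH3, 0.129 and 0.165 for KCNG1 and 0.0633 and 0.144 for SCN2A. In these fits the direction held for all 6. Among the other alternatives, KCNG1 was not called under limma-trend (adjusted p = 0.0699 and 0.0694), library size alone (0.0740) or no filter (0.0529), SCN2A not under limma-trend (0.106 and 0.103) and KCNH3 not without a filter (0.0570). Leaving out a library also lowers the residual degrees of freedom of the fit from 4.

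Counts of 0 in 1 library beside 10 or more in another of the same group were seen in 10 members, of which CACNA2D3, KCNJ2 and SCN9A were tested. Among untested members, KCNJ3, a G protein-gated rectifier, had 0, 26 and 8 counts in KO and 0, 0 and 25 in WT. KCNU1, a sperm potassium channel, had 14, 0 and 0 counts in KO. Both are named here after their values were seen.

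Genes that work with these channels were examined from a list of 58 partners, such as calmodulins, the NALCN leak complex, fibroblast growth factor homologous factors, ankyrins and channel ubiquitin ligases. Of these, 50 were in the tables, 6 were listed at 0 in all libraries and 34 were tested, with 0 called higher and 2 called lower, against 3.21% and 4.63% of all genes. At an unadjusted p under 0.05, 4 were higher and 7 lower (11.9% and 12.8% of all genes). DESeq2 called 2 higher and 4 lower of 38 partners in its test, against 5.67% and 8.06% of all genes there. NALCN and UNC80, parts of a sodium leak complex, were the ones called lower. NALCN, the pore, had 0, 0 and 0 counts in KO and 19, 18 and 13 in WT, at least 17.3-fold lower in KO when set against a floor of 3 counts over the group (adjusted p = 0.0177). It passed the filter on low counts through the WT libraries alone, so a difference was built into its being tested. UNC80, a scaffold, had 15.0, 14.2 and 13.3 CPM in KO and 21.6, 19.98 and 21.8 CPM in WT (log2 fold change -0.58 ± 0.14 SE, adjusted p = 0.0496). UNC79, the other scaffold and named after its values were seen, had 19, 17 and 30 counts in KO and 9, 20 and 23 in WT. Both calls were lost when any 1 of KO replicates 1 and 2 and WT replicates 1 to 3 was left out, with adjusted p up to 0.0901 for NALCN and 0.162 for UNC80. CALM2, a calmodulin gene whose coding sequence is closely like those of its paralogs, had a log2 fold change of -0.04 ± 0.08 (SE). NEDD4L, a ubiquitin ligase of sodium channels, was at 1269 to 1760 CPM in KO and 1393 to 1485 CPM in WT (0.14 ± 0.13 SE, adjusted p = 0.552). KO replicate 3 was its lowest library, and without it the adjusted p was 0.0123. TPCN1, an endolysosomal channel, was at 73.7 to 134 CPM in KO and 149.7 to 171 CPM in WT (-0.59 ± 0.21 SE, adjusted p = 0.146). REST, which represses neuronal channel genes, was listed at 0 in all 6 libraries, as were 39.7% of all genes. Whether its 0 reflects a missing transcript or how the gene was quantified was not tested.

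Channel genes are long. The length implied by count and RPKM had a median of 61.5 kb in tested members and 17.2 kb in all genes tested, and 16 tested members (34.0%) were over 100 kb, against 7.51% of all genes. Of the 16 long members 2 were called lower (12.5%), against 7.72% of all genes of that length, and their median log2 fold change was -0.26, against -0.05. Of the 31 shorter members 4 were called lower (12.9%), against 4.38% of shorter genes, with medians of -0.01 and 0.05. As a description across genes, which are not independent replicates and share these libraries, Spearman's rho of length and log2 fold change was -0.10 over the 47 members and -0.08 over all 13965 genes.

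**Figure D4:**
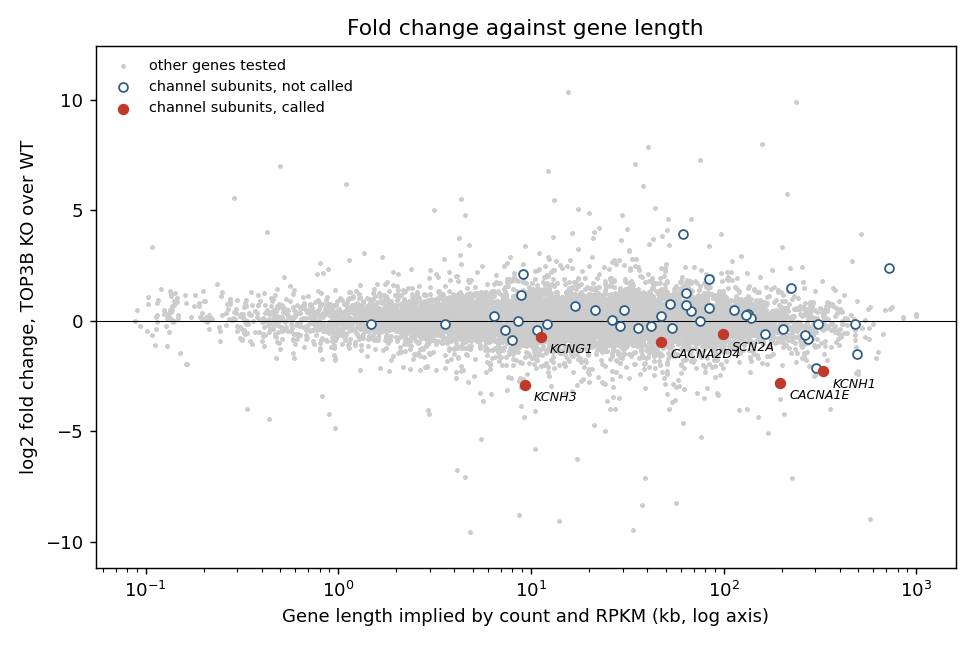
Log2 fold change, KO over WT, against the gene length implied by count and RPKM (kb, log axis), with called channel subunits in red, other tested subunits as open circles and other genes tested in grey. Both the short and the long members include called genes.

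The called members lie on 4 chromosomes and not beside each other. Within 1 Mb of CACNA1E, KCNH1 and KCNG1 no other gene was called, among 10, 13 and 8 tested neighbours. The 10 neighbours of CACNA2D4 held 1 gene called higher, the 37 of KCNH3 held 2 higher and 1 lower (CACNB3, also among them, was not called), and the 4 of SCN2A held 1 of each. Neighbours had median log2 fold changes of -0.38 around CACNA1E, -0.16 around KCNH1, 0.32 around KCNG1, 0.08 around CACNA2D4, 0.03 around KCNH3 and 1.19 around SCN2A.

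RefSeq promoter windows (GRCh38.p14, 250 bases before to 50 after a start) matched 82 of the 114 members, with 132 windows, and 3 of the called ones. The stretches upstream of these 3 are printed from 5′ to 3′ on the gene's strand, without bases that GENCODE v29 gives as exon, because these 3 differ in G and C content. Capitals mark CCAAT and, for KCNH1, the GC box GGGCGG read on the other strand as CCGCCC. The windows are chr1:181483267-181483310 (plus strand) for CACNA1E, chr1:211134181-211134398 (minus strand) for KCNH1 and chr2:165239164-165239371 (plus strand) for SCN2A, and those of CACNA1E and SCN2A lie at RefSeq starts inside the longer GENCODE genes.
CACNA1E: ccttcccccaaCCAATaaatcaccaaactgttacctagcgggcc
KCNH1: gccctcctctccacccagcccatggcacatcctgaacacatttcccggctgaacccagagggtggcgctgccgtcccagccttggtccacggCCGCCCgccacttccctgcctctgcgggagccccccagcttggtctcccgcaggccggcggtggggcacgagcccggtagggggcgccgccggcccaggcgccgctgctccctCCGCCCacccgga
SCN2A: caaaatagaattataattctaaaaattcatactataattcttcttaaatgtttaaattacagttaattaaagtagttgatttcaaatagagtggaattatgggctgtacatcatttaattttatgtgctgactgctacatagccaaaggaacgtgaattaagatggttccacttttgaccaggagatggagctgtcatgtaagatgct

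The KCNH1 stretch had 74.8% G and C and 2 GC boxes. The SCN2A stretch had 30.3% G and C and held none of the 5 motifs searched, and the short CACNA1E stretch had 52.3% and 1 CCAAT. Over the full 250 bases, exon bases included, G and C made up 75.6% for KCNH1, 29.2% for SCN2A and 48.8% for CACNA1E. The motifs were searched on both strands in the first 250 bases of every window. GGGCGG was found in 46.0% of the 63 windows of tested members, against 60.03% of the windows of all genes tested and 42.6% of all 35114 windows. CCAAT was found in 33.3% of tested members' windows, against 32.7% for genes tested and 32.01% of all windows. CACGTG was found in 7.94%, against 7.99% for genes tested and 6.35% of all windows. TATAAA was found in 7.94%, against 6.29% for genes tested and 10.7% of all windows, and an SCN2A window held it outside the printed stretch. TTCAGCACC, the left part of the element bound by REST, is too rare to compare, with 1 match in the 132 windows of all members (0.758%, in KCNH6), 0 in the 63 of tested members and 0.288% of all windows. These matches describe letters and not bound sites.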

How the data were processed

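The authors deposited, per gene and library, an estimated count and an RPKM value. Salmon 1.10.1 and hg19 are listed in the submitters' processing notes, without the role of each. The deposited counts are whole numbers rounded from estimates, and the deposited RPKM was used for levels. Of 35820 entries, 1 was named differently in the 2 tables and left out. Positions are from GENCODE v29 on GRCh38, which matched 114 of 114 members by symbol, and no hg19 coordinate is used. Library totals were 20340136, 19826713 and 18501898 counts in KO and 17919106, 20414406 and 20475280 in WT.

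Low counts were removed by filterByExpr, and edgeR 4.0.16 in R 4.3.3 gave the tests (quasi-likelihood F test without covariates, TMM scaling, Benjamini-Hochberg adjustment over 13965 genes, threshold 0.05). Every adjusted p without another tool's name comes from this fit, and every fold change is KO over WT. The SE of a log2 fold change in this fit is its absolute value divided by the square root of the F statistic. It can be too narrow for genes with few counts. Alternatives were DESeq2 1.42.0, limma 3.58.1 as voom, limma-trend on log2(RPKM + 1) and log2(RPKM + 0.1), size factors of DESeq2 within edgeR, library size alone, no filter, at least 1 CPM in 3 libraries, and each library left out. The scripts were tested on simulated data. KO replicate numbers follow the order of deposition.

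The members, the role groups and the partner and marker lists were chosen with earlier results of these data known. The text names called members, the 2 tested members per role with the highest mean RPKM, the 6 uncalled members with the largest log2 fold change, and of the partners those called and the 4 most abundant. Others are named as stated. A few genes that the rule or the lists name are counted but not reported here by name or drawn with a label.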

Additional observations from a re-analysis of the deposited data

How the results depend on the processing

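CACNA1E and CACNA2D4 were called lower under all 8 alternatives and in all 6 fits with a library left out. Against 0 members called higher and 6 lower in the edgeR fit, DESeq2 called 4 higher, library size alone 3, and limma-voom, limma-trend with either pseudocount and the filter of 1 CPM in 3 libraries 1 each. Members called lower numbered 9 with DESeq2, 7 with limma-voom, 6 with DESeq2 size factors or the 1 CPM filter (which left KCNH3 untested), 5 with library size alone and 4 with limma-trend or no filter. The fits with a library left out called 0 to 3 members higher and 2 to 8 lower. Partner genes called lower, 2 in the edgeR fit, numbered 4 with DESeq2, 1 with limma-voom, library size alone, no filter or the filter of 1 CPM, and 0 with limma-trend, and partners called higher numbered 2 with DESeq2. Left-out fits gave 0 to 2 partners higher and 0 to 3 lower. Of all genes, DESeq2 called 5.67% higher and 8.06% lower, and limma-voom 3.09% and 4.89%. For the other alternatives only totals over all genes are given here. Over all genes, 1095 were called by edgeR, 2073 by DESeq2, 1114 by limma-voom and 1081 and 1049 by limma-trend. Totals were 1130 with DESeq2 size factors, 1116 with library size alone, 867 without a filter and 1151 with the 1 CPM filter. With a library left out they were 223 to 1899, most without KO replicate 3. The cause was not tested.

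Genes near 0 that did not pass changed sign. With limma-trend at either pseudocount and with library size alone, CALM2 came to 0.012, 0.012 and 0.013, and KCNJ14 to 0.032, 0.046 and 0.050, with a left-out range of -0.058 to 0.023 for KCNJ14. Left-out ranges crossed 0 for KCNC4 (-0.13 to 0.18), KCNE5 (-0.42 to 0.067), KCNJ15 (-0.029 to 0.62) and KCNK1 (-0.79 to 0.18). No paired analysis was possible because the KO labels carry no replicate numbers. Depth limits members with few counts, such as KCNH3 with 1, 2 and 2 counts in KO.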
